A study of Mus musculus with 10 samples.

Results

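Ribosome biogenesis starts in the nucleolus, and the 53 genes described here, nearly all of which encode parts of its core machinery, were measured in neutrophils with and without vimentin. They were chosen by gene symbol among the 13091 genes of the tables. A pattern of symbols (Nop, Noc, Nol, Utp, Rrp or Rrs followed by a digit, without Nol3) gave 36 genes, and 17 were added by symbol (Fbl, Ncl, Npm1, Bop1, Pes1, Wdr12, Wdr43, Gnl3, Nolc1, Dkc1, Gar1, Nhp2, Ddx21, Polr1a, Polr1b, Ftsj3 and Ltv1). By role, 2 members are subunits of RNA polymerase I, 3 belong to the box C/D and 4 to the box H/ACA small nucleolar ribonucleoproteins (snoRNPs), 22 act mainly on the small subunit, 18 on the large subunit, and 3 are abundant nucleolar scaffold proteins or chaperones. The remaining member, Nol4l, matched the pattern by its name alone and is counted with no role.

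RNA was sequenced from neutrophils differentiated in culture from HoxB8-immortalized myeloid progenitors from mice of a 129-SVEV strain. The 10 libraries fall into 4 groups, with 2 replicates in each Vim+/+ group (numbered 1 and 3 in the labels) and 3 in each Vim-/- group (1, 2 and 3), and cells were either left unstimulated or given 25 ng/mL LPS, the bacterial lipopolysaccharide sensed through TLR4, for 1 h. The labels call the Vim-/- cells a knockdown, whereas the study derives them from knockout mice. All cells, controls included, carry the immortalizing HoxB8 and were matured by ending its activity. The study made its progenitors as clonal lines, but the labels name the replicates only as biological replicates and do not say which line each came from. The identifier of each replicate recurs in its unstimulated and LPS libraries.

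Ribosomal RNA is transcribed in the nucleolus by RNA polymerase I, modified by snoRNPs that direct methylation (box C/D) or pseudouridylation (box H/ACA), cut, folded, and assembled with ribosomal proteins into precursors of both subunits. The small subunit processome carries out the early steps of the small subunit, and the Pes1-Bop1-Wdr12 complex with its partners those of the large subunit. The pathway is known to be most active in dividing cells and to decline as granulocyte precursors stop dividing and mature.

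Promoters are shown for 5 of the 6 members with the largest Wald statistics at baseline in either direction, 3 of which passed the test there (Utp20, Gar1 and Utp14a) and 2 of which were just outside its threshold (Ltv1 and Noc2l). The sixth is Rrp12. RefSeq's sequences on GRCm38.p6 (equivalent to mm10), from 250 bases before to 50 after a start, matched 45 of the 53 members. The sequence CACGTG, the E-box bound by MYC and its relatives, and CCGGAAG or its reverse complement CTTCCGG, an ETS family motif, are in capitals, and the motifs share no bases. The Utp20 promoter (chr10:88826765-88827064, minus strand), that of Gar1 (chr3:129831347-129831646, minus strand), that of Utp14a (chrX:48256684-48256983, plus strand), that of Ltv1 (chr10:13193088-13193387, minus strand) and that of Noc2l (chr4:156235765-156236064, plus strand) read as follows.
Utp20: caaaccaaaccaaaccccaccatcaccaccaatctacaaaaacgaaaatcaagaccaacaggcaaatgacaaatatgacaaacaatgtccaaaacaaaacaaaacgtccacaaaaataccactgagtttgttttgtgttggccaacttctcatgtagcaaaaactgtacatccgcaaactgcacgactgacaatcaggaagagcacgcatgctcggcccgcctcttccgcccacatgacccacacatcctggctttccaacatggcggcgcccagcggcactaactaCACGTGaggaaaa
Gar1: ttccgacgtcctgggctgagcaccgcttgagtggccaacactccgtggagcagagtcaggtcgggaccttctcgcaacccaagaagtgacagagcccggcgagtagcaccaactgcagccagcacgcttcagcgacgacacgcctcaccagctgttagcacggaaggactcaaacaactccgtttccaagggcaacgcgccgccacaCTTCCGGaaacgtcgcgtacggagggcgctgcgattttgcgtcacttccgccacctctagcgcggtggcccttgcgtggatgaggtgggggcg
Utp14a: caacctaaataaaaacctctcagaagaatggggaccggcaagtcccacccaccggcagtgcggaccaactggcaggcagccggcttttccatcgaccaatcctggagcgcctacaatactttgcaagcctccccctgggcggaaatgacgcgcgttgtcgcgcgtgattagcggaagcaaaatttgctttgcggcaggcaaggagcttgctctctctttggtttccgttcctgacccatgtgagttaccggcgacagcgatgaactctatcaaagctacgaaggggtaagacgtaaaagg
Ltv1: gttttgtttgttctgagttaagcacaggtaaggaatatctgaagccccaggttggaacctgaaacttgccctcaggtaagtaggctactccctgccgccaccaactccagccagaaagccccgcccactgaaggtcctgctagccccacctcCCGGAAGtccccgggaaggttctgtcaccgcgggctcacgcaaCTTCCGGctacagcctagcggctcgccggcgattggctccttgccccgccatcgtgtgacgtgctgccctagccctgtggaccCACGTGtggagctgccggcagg
Noc2l: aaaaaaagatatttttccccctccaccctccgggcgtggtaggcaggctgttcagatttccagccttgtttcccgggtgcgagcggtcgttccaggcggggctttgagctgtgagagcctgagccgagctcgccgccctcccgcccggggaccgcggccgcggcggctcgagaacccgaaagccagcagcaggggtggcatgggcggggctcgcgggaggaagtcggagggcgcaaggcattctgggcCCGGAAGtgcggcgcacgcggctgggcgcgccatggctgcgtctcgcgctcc

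CACGTG stood in 9 of the 45 member promoters (20%), against 1042 of 10186 promoters of all genes in the tables (10.2%). CCGGAAG on either strand stood in 14 of 45 (31.1%), against 1874 of 10186 (18.4%). Of the members that passed a test below, Utp20 held the E-box, and Gar1 and Nolc1 held the ETS motif. The windows of Utp14a, Dkc1 and Nop58 held neither, and those of Rrp12 and Rrs1 were not among the promoters used. At baseline the median log2 fold change of Vim-/- over Vim+/+ was 0.30 for the 9 members with CACGTG and 0.04 for the 36 without, and after LPS it was 0.10 and 0.23, so the order of the groups turned. For the 14 members with CCGGAAG the medians were -0.24 at baseline and 0.05 after LPS, against 0.10 and 0.26 for the 31 without. Over all genes the order was the same for CCGGAAG, with 0.01 and 0.02 for those with the motif and 0.09 and 0.04 for those without. For CACGTG the all-gene medians were 0.10 and 0.05 with the motif and 0.08 and 0.04 without.

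The values are the comparisons of 1 model fitted by the authors to all libraries, not values per library. Each gene has a baseMean (the normalised read count averaged over libraries), a log2 fold change and its standard error (SE), and a Wald test with a Benjamini-Hochberg adjusted p. A gene is said to have passed at an adjusted p under 0.05. All genotype values are Vim-/- over Vim+/+. The Vim transcript itself was at -13.56 (SE 0.33) unstimulated and -12.44 (SE 0.24) after LPS, in the direction of the labels. In bulk RNA, fewer cells of a type and less RNA per cell cannot be told apart.

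Neutrophil transcripts were abundant (S100a9 1290830, S100a8 938175 and Ngp 1107492 normalised counts), and 5 of 12 neutrophil markers were higher in unstimulated Vim-/- cells. Of 8 cell cycle markers, 5 were higher at baseline and 7 after LPS (median log2 fold changes 0.45 and 0.71, Top2a 0.99 at baseline). Of 8 progenitor markers in the tables, 3 were lower at baseline (Cd34 -1.01, Prtn3 -1.14, Ctsg -2.55), 1 was higher (Hoxb8, the immortalizing factor, 0.94) and 4 did not pass, with Kit at 0.21 and the other 3 below 0. Also lower were Csf1r and Adgre1 of the 4 monocyte markers. Transcripts of the eosinophil and mast cell lineage were also high in counts (Epx 142776, Prg2 268319, Cpa3 26296 normalised counts). Epx (0.67) and Prg2 (0.29) did not pass at baseline, while Cpa3 (-0.96) and Gata2 (-0.61) were lower, of which Cpa3 was also lower after LPS. The lymphocyte marker Nkg7 was lower at baseline (-1.63). After LPS, 2 of the 12 neutrophil markers were higher in Vim-/- cells (Camp 1.16, Ngp 0.50), the same 3 progenitor markers were lower (Cd34 -0.67, Prtn3 -0.79, Ctsg -2.06) and Hoxb8 was higher (0.98). Csf1r (-1.19) and Adgre1 (-0.58) were lower there too, as were both lymphocyte markers in the tables (Nkg7 -1.46). Of all genes, 12.6% were higher and 6.15% lower in Vim-/- cells at baseline, and 6.68% and 4.35% after LPS. The part of these markers in the results below was not tested.

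All 53 members had a baseMean of at least 100, from 161.9 for Nol4l to 33089 for Ncl, with a median of 1219 against 907.2 for all genes. Per kilobase of the principal transcript, the nucleolar chaperone Npm1 was highest at 7899 normalised counts, above 95.7% of the genes with a length. It was followed by Ncl (nucleolin, which binds nascent ribosomal RNA) at 4034, Rrp1 at 3364, Nhp2 at 2955 and the box C/D methyltransferase Fbl (fibrillarin) at 1823. The polymerase subunits were low, with 135.1 for Polr1a and 79.11 for Polr1b, and Utp20 stood at 53.33. The order depends on the annotated transcript, which is long for Ncl (8202 bases) and Wdr12 (10012 bases). The members lie on 17 chromosomes. Within 6 of them (11.3%), Ncl, Nop56, Nop58, Dkc1, Gnl3 and Wdr43, lie annotated small nucleolar RNAs, against 236 of 12320 genes (1.92%). Exons of 20 members overlap a gene on the other strand, and those of Utp14b overlap Acsl3 on the same strand, so the Utp14b value is uncertain.

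In unstimulated neutrophils, loss of vimentin was accompanied by few differences that passed in this machinery, all but that of Rrp12 below 2-fold. Of the 53 members, 3 were higher in Vim-/- cells (Rrp12, Utp20 and Gar1; 12.6% of all tested genes were higher) and 1 was lower (Utp14a; 6.15% of all genes were lower). That is 7.55% of the members, against 18.8% of all genes. The balance depends on a small shift of the scale: centred on the median gene, by 0.06, only Rrp12 was higher and 4 members were lower (Utp14a, Noc2l, Ltv1 and, named after its values were seen, Utp3), against 10.6% and 7.73% of all genes, and Gar1 and Utp20 did not pass. Without centring, only Rrp12 passed with a change of over 2-fold, a rule met by 7.14% of all genes. The median log2 fold change was 0.0004 over the members and 0.08 over all genes, with 27 members above 0 and 26 below (50.9% above 0, against 55.9% of all genes). For 42 members (79.2%) the 95% interval lay within a 2-fold change in either direction, as it did for 50.9% of all genes.

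Rrp12, an export factor for both subunits that acts late on the small one, had the largest difference. It lies on chromosome 19 from 41859483 to 41896153 and was 2.06-fold higher in Vim-/- cells (log2 fold change 1.04, SE 0.25, adjusted p = 0.0004252). Utp20, a very large scaffold protein of the small subunit processome on chromosome 10 from 88746607 to 88826814, was 1.76-fold higher (0.81, SE 0.31, adjusted p = 0.04555). Gar1, a core protein of the box H/ACA snoRNP on chromosome 3 from 129824912 to 129831407, was 1.77-fold higher (0.83, SE 0.31, adjusted p = 0.04688). Utp20 and Gar1 therefore passed close to the threshold. Utp14a, a processome protein that activates a helicase, lies on the X chromosome from 48256934 to 48282450, where its exons overlap a gene on the other strand, and was lower at 0.64 of the Vim+/+ level (-0.63, SE 0.22, adjusted p = 0.02964). The next lowest members did not pass, with -0.52 for Noc2l (SE 0.20, adjusted p = 0.05666), which works in early large subunit particles, and -0.52 for Utp23 (SE 0.25, adjusted p = 0.1493), which works in the processome.

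**Figure D1:**
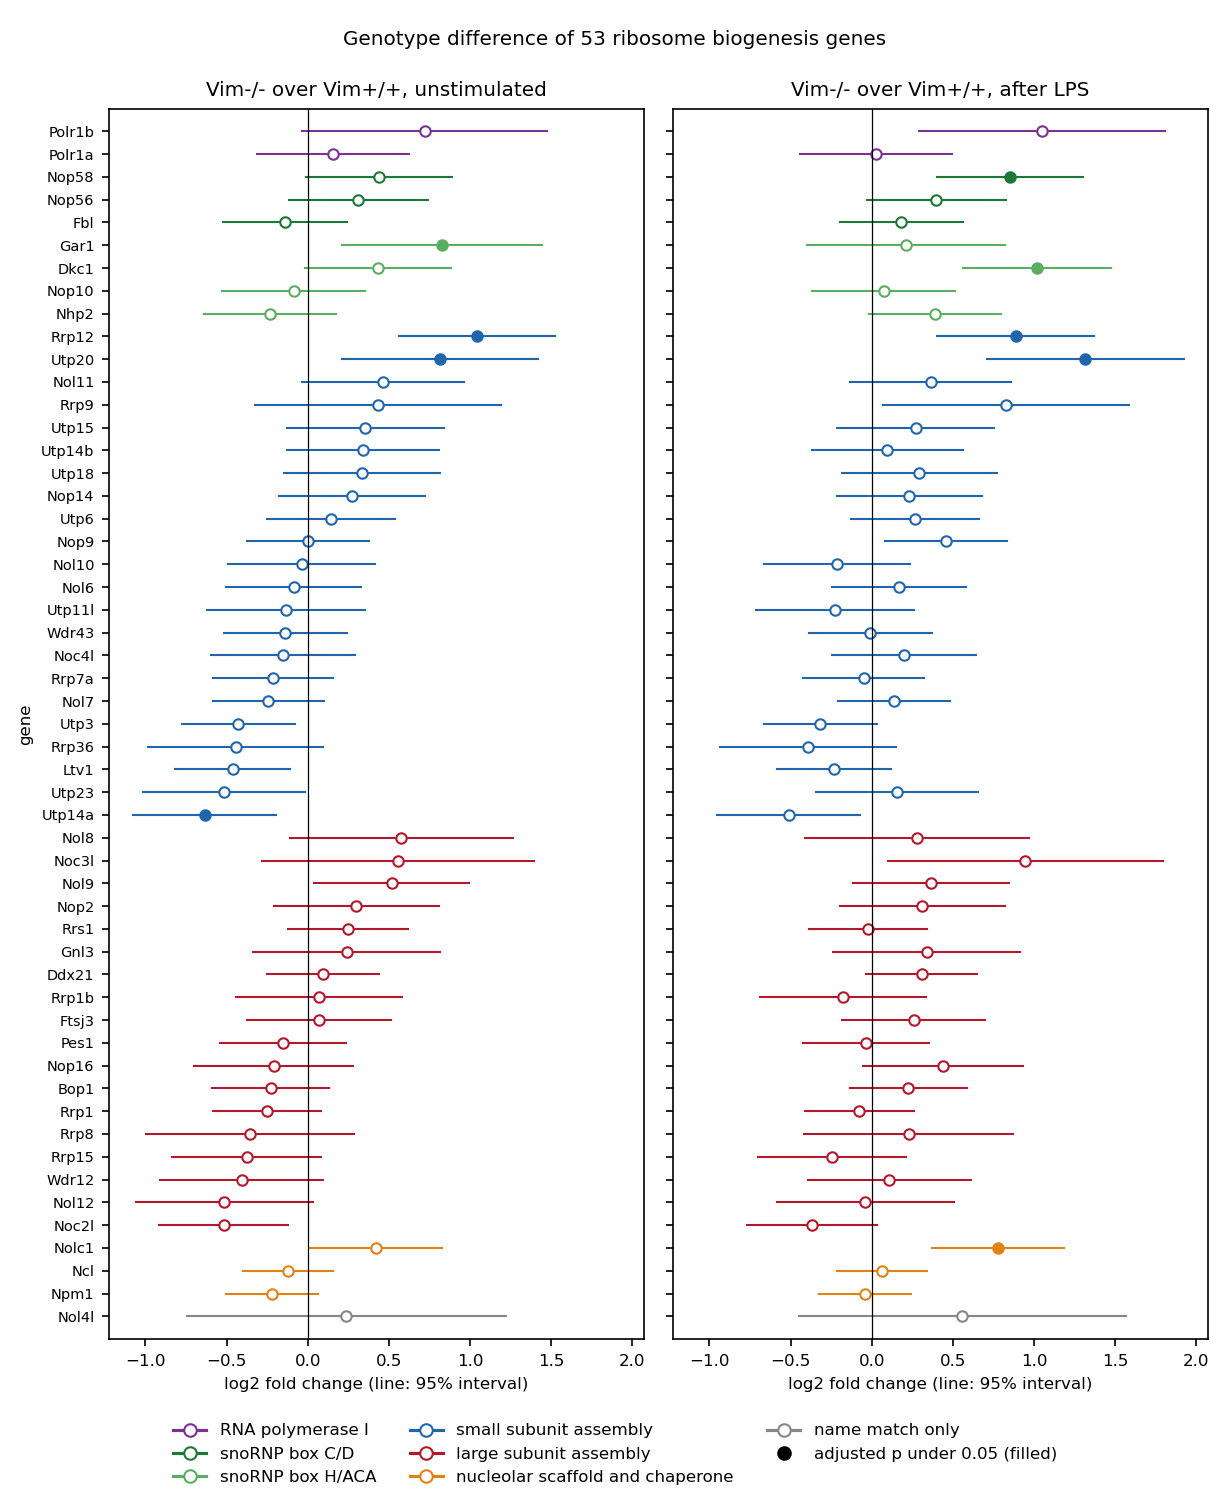
Genotype difference of each member in unstimulated (left) and LPS-treated (right) neutrophils, as log2 fold change of Vim-/- over Vim+/+ on the horizontal axis with its 95% interval, 1 gene per line, coloured by role. Filled points passed the test: Rrp12, Utp20 and Gar1 lie to the right and Utp14a to the left at baseline, and 5 members lie to the right after LPS.

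By role, the members spread to both sides of 0 at baseline. In RNA polymerase I, the largest subunit Polr1a was at 0.16 (SE 0.24) and the second largest, Polr1b, at 0.72 with a wide SE of 0.39 (adjusted p = 0.1929). In the box C/D snoRNP, the values were -0.14 for Fbl (SE 0.19), 0.31 for Nop56 (SE 0.22) and 0.44 for Nop58 (SE 0.23), the last 2 being its core scaffold proteins. None of the 3 passed. In the box H/ACA snoRNP, the pseudouridine synthase Dkc1 (dyskerin) was at 0.43 (SE 0.23, adjusted p = 0.1894), and the partners of Gar1 and Dkc1, Nhp2 and Nop10, were at -0.23 and -0.09. The 22 small subunit members had a median of -0.06 and held 3 of the 4 that passed. Ltv1, which accompanies small subunit precursors to the cytoplasm, was at -0.46 (SE 0.18, adjusted p = 0.05414), just outside the threshold. Nol6, a processome component, was at -0.09 (SE 0.21). The small subunit members that did not pass ranged from -0.52 (Utp23) to 0.46 (Nol11, a processome component chosen for the range).

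None of the 18 large subunit members passed at baseline, where they ranged from -0.52 (Noc2l) to 0.58 (Nol8, chosen for the range) with a median of -0.04 (1 was higher and 1 lower at an unadjusted p under 0.05 in the Wald test, against 18.9% and 10.6% of all genes). The members of the Pes1-Bop1-Wdr12 complex, which is needed to process the large subunit precursor, were at -0.15 (Pes1, SE 0.20), -0.23 (Bop1, SE 0.18) and -0.41 (Wdr12, SE 0.26). The helicase Ddx21 was at 0.10 (SE 0.18), and Gnl3 (nucleostemin), a GTPase of dividing cells, at 0.24 (SE 0.29). Of the scaffold proteins and chaperones, Ncl was at -0.12 (95% interval -0.40 to 0.16), Npm1 at -0.22 (-0.51 to 0.06) and Nolc1, which binds snoRNPs, at 0.42 (0.01 to 0.83, adjusted p = 0.1513). Some of these calls depend on the centring: Noc2l passed as lower when centred on the median gene (-0.58, adjusted p = 0.0302), and Wdr12 (-0.86, adjusted p = 0.01033) and Ncl (-0.57, adjusted p = 0.001234) did when centred on genes of like length. The calls of Wdr12 and Ncl rest on their long annotated transcripts (10012 and 8202 bases), which set the genes they were centred on.

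After LPS, 5 members were higher in Vim-/- than in Vim+/+ neutrophils (Dkc1, Utp20, Nolc1, Nop58 and Rrp12), and none passed as lower (1 at an unadjusted p under 0.05 in the Wald test, against 9.24% of all genes). These are 9.43% of the members, against 6.68% of all genes higher and 4.35% lower. With the 2-fold rule, Dkc1 and Utp20 passed, and 5.32% of all genes did. The median of the members was 0.21 (all genes 0.03), with 37 above 0 and 16 below (69.8% above 0, against 53.4% of all genes), and for 44 members (83%) the interval lay within a 2-fold change, against 55.3% of all genes.

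The members that passed after LPS come from several steps of the pathway. Dkc1, on the X chromosome from 75095854 to 75109776, was 2.02-fold higher (1.02, SE 0.23, adjusted p = 0.0003969), and its exons overlap Mpp1 on the other strand. Utp20 was 2.49-fold higher (1.32, SE 0.31, adjusted p = 0.000639). Nolc1 was 1.72-fold higher (0.78, SE 0.21, adjusted p = 0.003783). Nop58 was 1.80-fold higher (0.85, SE 0.23, adjusted p = 0.004375), and Rrp12 1.85-fold (0.89, SE 0.25, adjusted p = 0.005796). Rrp12 and Utp20 were the members that passed in both genotype comparisons. They are 3.77% of the members, against 7.8% of all genes. The 2 comparisons use different libraries but share 1 model and the replicate identifiers.

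The other 2 that had passed at baseline did not pass after LPS, with 0.21 for Gar1 (SE 0.31, adjusted p = 0.7719) and -0.51 for Utp14a (SE 0.22, adjusted p = 0.1295). Polr1b was at 1.05 with an adjusted p of 0.05677, just outside the threshold, while Polr1a was at 0.03. The other core snoRNP proteins were at 0.40 (Nop56), 0.18 (Fbl), 0.39 (Nhp2) and 0.07 (Nop10). The abundant Ncl and Npm1 were at 0.06 (95% interval -0.21 to 0.34) and -0.04 (-0.32 to 0.24). None of the 18 large subunit members passed after LPS (1 higher at an unadjusted p under 0.05, against 12.8% of all genes), with Pes1 at -0.04, Bop1 at 0.22, Wdr12 at 0.11, Ddx21 at 0.31 and Gnl3 at 0.34. Nol6 was at 0.17. Chosen for their values, the largest that did not pass in these roles were 0.83 for Rrp9, a protein of the box C/D particle that guides small subunit processing (SE 0.39, adjusted p = 0.167), and 0.94 for Noc3l, a partner of Noc2l (SE 0.43, adjusted p = 0.155).

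These genotype calls depend on how the null spread is set. The Wald statistics of all genes had a robust spread of 1.830 at baseline and 1.498 after LPS, where 1 is the spread of the null. Centred and scaled by these, no member passed in either comparison, with adjusted p-values of 0.4878 for Rrp12 at baseline and 0.1407 for Dkc1 after LPS. Of all genes, 1.44% and 2.22% then passed, so that 0 of 53 members is near the background.

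Levels of the 4 groups can be set on 1 scale, the log2 level relative to unstimulated Vim+/+ neutrophils, because the 4 fold changes of every member add up within 1e-06. Rrp12 was at 0.29 in Vim+/+ with LPS, 1.04 in unstimulated Vim-/- and 1.18 in Vim-/- with LPS, so both Vim-/- groups were above both Vim+/+ groups. Utp20 was at 0.26, 0.81 and 1.57 in the same order, with the highest level in LPS-treated Vim-/- cells. Utp14a, at -0.27, -0.63 and -0.78, had both Vim-/- groups below both Vim+/+ groups. Dkc1 was at -0.35, 0.43 and 0.66, Nolc1 at -0.01, 0.42 and 0.77, and Nop58 at 0.02, 0.44 and 0.87. These 3 passed after LPS and not at baseline, and the difference between their LPS responses did not pass (adjusted p = 0.861, 0.9522 and 0.9511 in the normal test across all genes). Gar1, at 0.27, 0.83 and 0.48, had its highest level in unstimulated Vim-/- cells. In all, 8 members (15.1%) passed in at least 1 of the 4 comparisons, against 23.1% of all genes. These are modelled group levels, and the spread of single libraries around them is not in the tables.

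**Figure D2:**
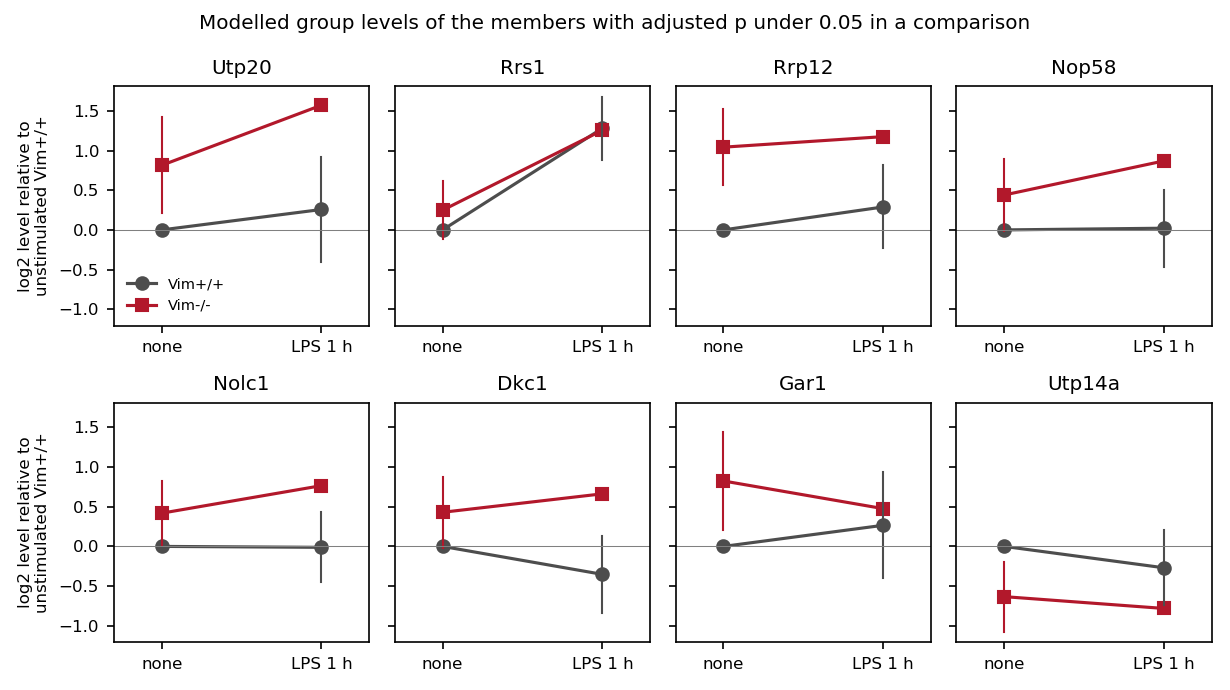
Modelled log2 level of the 8 members that passed in at least 1 comparison, relative to unstimulated Vim+/+ neutrophils (vertical axis), without and with LPS for 1 h (horizontal axis), for Vim+/+ (grey circles) and Vim-/- (red squares). Vertical lines are 95% intervals of the deposited fold change from unstimulated Vim+/+, which the tables hold for LPS-treated Vim+/+ and unstimulated Vim-/- cells and not for LPS-treated Vim-/- cells; Rrs1 rises in both genotypes to about the same level, and Utp20 in Vim-/- with LPS is the highest point at 1.57.

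LPS for 1 h raised a single member, the same one in both genotypes. Rrs1, a factor that brings the 5S ribonucleoprotein particle into the large subunit precursor, lies on chromosome 1 from 9545408 to 9547455. It rose 2.43-fold in Vim+/+ neutrophils (log2 fold change 1.28, SE 0.20, adjusted p = 4.59e-08) and 2.01-fold in Vim-/- neutrophils (1.01, SE 0.17, adjusted p = 3.356e-07). The difference between these responses was -0.27 (95% interval -0.79 to 0.24, adjusted p = 0.9784). Rrs1 did not differ detectably between genotypes at baseline (0.25, SE 0.19) or after LPS (-0.03, SE 0.19). In all genes, 1.8% rose and 0.374% fell in Vim+/+ neutrophils, and 1.51% rose and 0.698% fell in Vim-/- neutrophils. With the 2-fold rule, which Rrs1 also met in both, the shares were 1.31% and 1.16%. Rrs1 is thus 1.89% of the members, close to the background of genes that rose.

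The other 52 members did not pass in either LPS comparison. Over all 53 members, Rrs1 included, the median in Vim+/+ neutrophils was 0.01, as it was 0.01 over all genes, with 27 members above 0 and 26 below (2 higher and 1 lower at an unadjusted p under 0.05 in the Wald test, against 7.88% and 3.79% of all genes). In Vim-/- neutrophils the median of the 53 was 0.19 against -0.02 over all genes, with 44 members above 0 and 9 below (83% above 0, against 47.4% of all genes). At an unadjusted p under 0.05, 6 were higher and none lower there, against 3.32% and 3.91% of all genes. Utp20 had the next largest value there after Rrs1, 0.76 (SE 0.28, adjusted p = 0.1852). The intervals lay within a 2-fold change for 48 members in Vim+/+ and 49 in Vim-/- neutrophils (90.6% and 92.5%, against 56.5% and 65.1% of all genes). Ncl was at 0.05 (SE 0.15) and 0.24 (SE 0.13), Npm1 at 0.03 (SE 0.16) and 0.21 (SE 0.13), and Fbl at -0.06 (SE 0.21) and 0.26 (SE 0.18) in Vim+/+ and Vim-/- neutrophils. Neither polymerase subunit passed, with 0.32 and 0.19 for Polr1a and 0.02 and 0.35 for Polr1b, and their 95% intervals included 0. Pes1 was at -0.08 and 0.03, Bop1 at -0.15 and 0.30, Wdr12 at -0.06 and 0.46, Ddx21 at 0.05 and 0.26, Gnl3 at 0.01 and 0.11, Nol6 at -0.04 and 0.21, and Nop56 at 0.22 and 0.31. None of these 7 passed. Nop58 was at 0.02 and 0.43 (in Vim-/- SE 0.21, adjusted p = 0.5727), Dkc1 at -0.35 and 0.23, and Nolc1 at -0.01 and 0.35, and none passed.

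**Figure D3:**
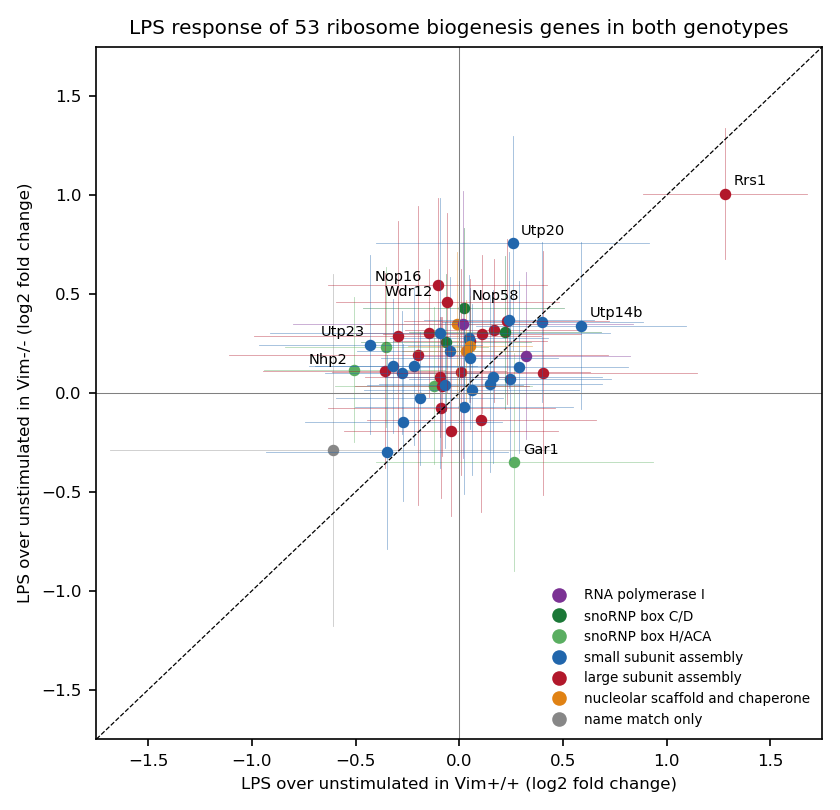
LPS response of each member in Vim+/+ (horizontal axis) and Vim-/- (vertical axis) neutrophils, as log2 fold changes with 95% intervals, coloured by role; the dashed line marks equal responses. Rrs1 stands apart at 1.28 and 1.01, and the other members lie within 0.76 of 0 on both axes, 39 of the 53 above the dashed line.

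The difference between the LPS responses, Vim-/- minus Vim+/+, addresses whether vimentin alters the response. No member passed (two-sided normal test from the 2 fold changes and their SE, adjusted over all 13091 genes), and 1 was more positive at an unadjusted p under 0.05 (2.19% of all genes were more positive and 3.85% more negative by that rule). In all genes 0.0611% were more positive and 0.0153% more negative in Vim-/- cells. The members with the smallest p were Nhp2 with a difference of 0.62 (95% interval 0.05 to 1.19, adjusted p = 0.7966), Utp23 with 0.67, Nop16 with 0.65, Dkc1 with 0.59 and Bop1 with 0.45. The intervals of all of these but Nhp2 included 0. The other fixed members ran from -0.13 for Polr1a to 0.52 for Wdr12. The median over the members was 0.16 against -0.04 over all genes, and 39 members were above 0 (73.6%, against 45.6% of all genes). Related lists described below leaned the same way. Above 0 were 69.8% of 96 other genes of the pathway, 92.7% of cytosolic and 92.2% of mitochondrial ribosomal protein genes. Values of this size could not be told from 0 for single genes, since the median SE of the difference was 0.32.

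Other genes of the pathway were read from a list of 96 that are no members. At baseline 6 were higher and 6 lower in Vim-/- cells (12.5%, against 18.8% of all genes), and after LPS 2 were higher and 3 lower (5.21%, against 11% of all genes). Among 14 further genes of the polymerase I machinery, none passed in any comparison (at baseline none higher and 1 lower at an unadjusted p under 0.05, and after LPS none and 3). Of 35 small subunit genes, Krr1, which works in the processome, was higher at baseline (0.67, SE 0.20, adjusted p = 0.006497), and Mphosph10 (-0.57), Nhp2l1 (-0.60) and Tbl3 (-0.62) were lower. After LPS Tsr1, a GTPase-like factor of late small subunit maturation, was the only one of the 35 to pass (1.03, SE 0.26, adjusted p = 0.00203).

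Of 47 further large subunit genes, 5 were higher and 3 lower at baseline (17% passed, against 18.8% of all genes). Mybbp1a, a MYB-binding protein of the nucleolus, was higher at baseline (0.57) and after LPS (0.73, SE 0.16, adjusted p = 0.000195), and Sdad1 (0.71) and Nvl (0.59) were higher at baseline. Pelp1 (-0.72 and -0.53), Nsa2 (-0.70 and -0.61) and Cebpz (-0.60 and -0.74) were lower in Vim-/- cells at baseline and after LPS. LPS raised Cebpz by 0.78 in Vim+/+ and 0.65 in Vim-/- cells. Tma16, an early large subunit factor named after its values were seen, rose by 1.12 and 1.43. Cebpz and Tma16 were the genes of these 96 that passed under LPS, 2.08% of the list in each genotype, against 1.8% of all genes that rose in Vim+/+ and 1.51% in Vim-/- cells.

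The cytosolic ribosomal proteins are assembled with ribosomal RNA by the nucleolar machinery, whereas mitochondrial ribosomes are built in mitochondria. Of 82 cytosolic ribosomal protein genes, 74 were lower in unstimulated Vim-/- neutrophils (90.2%, against 6.15% of all genes, median -0.71), and 49 were lower and 1 higher after LPS (59.8% lower, against 4.35% of all genes, median -0.45). Of 77 mitochondrial ribosomal protein genes, 12 were lower at baseline (15.6%, median -0.34) and 1 after LPS (median -0.06). In the LPS response of Vim-/- cells, 90.2% of the cytosolic and 67.5% of the mitochondrial list were above 0, against 83% of the members. In Vim+/+ cells these shares were 2.44%, 13% and 50.9%. Over all genes the baseline fold change rose with transcript length (Spearman's rho 0.313), and these lists were not centred on genes of like length. The difference between these lists and the members was not tested.

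**Figure D4:**
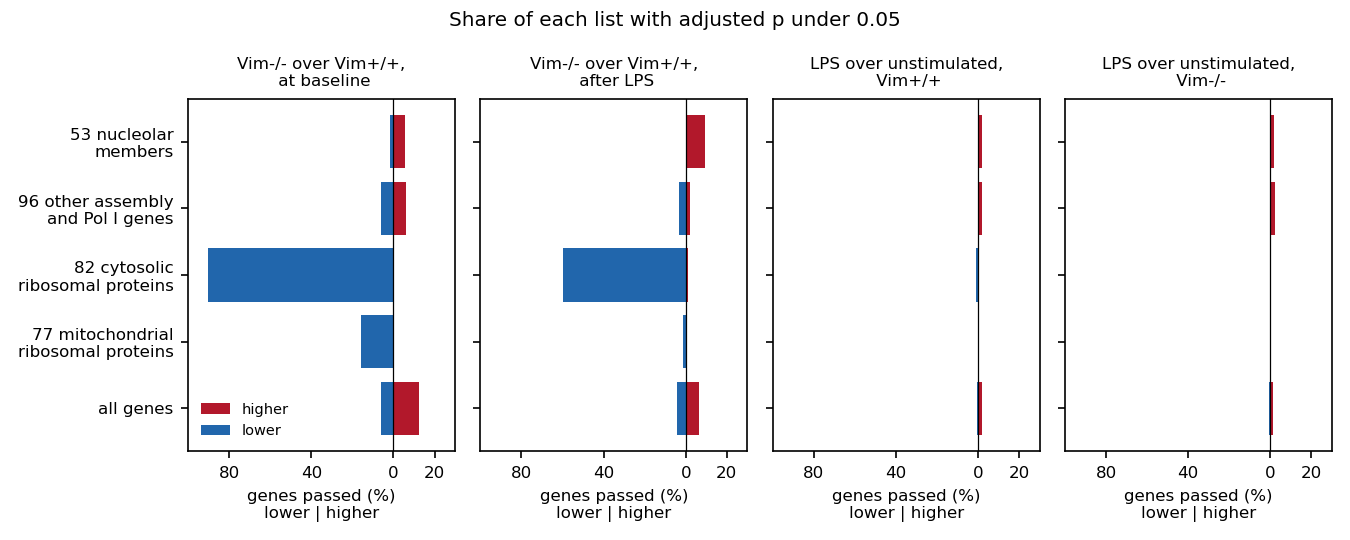
Share of genes with an adjusted p under 0.05 (horizontal axis, percent), lower to the left in blue and higher to the right in red, in the 53 members, 3 related lists and all genes, in the 4 comparisons. The cytosolic ribosomal proteins reach 90.2% lower at baseline and 59.8% after LPS, while the members stay at 7.55% and 9.43% passed in total. No list was centred on transcript length.

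At baseline the longer members had higher genotype values than the shorter. The 26 shorter members (principal transcript of 1042 to 2785 bases) had a baseline median of -0.15 with 10 above 0, and the 27 longer ones (2804 to 10012 bases) a median of 0.10 with 17 above 0. After LPS the medians were 0.19 and 0.26, with 16 and 21 above 0. Spearman's rho between length and the baseline fold change was 0.259 over the 53 members and 0.313 over 12320 genes, and with the fold change after LPS 0.178 and 0.140, as a description across genes that share libraries. Median lengths of members and all genes were 2804 and 2831 bases. Centred on genes of like length, 2 members were higher and 3 lower at baseline, against 7.31% and 6.06% of all genes. Utp20 no longer passed (0.37), and Ncl and Wdr12, whose annotated transcripts are long, did, as given above. The part of length in the other values was not tested.

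**Figure D5:**
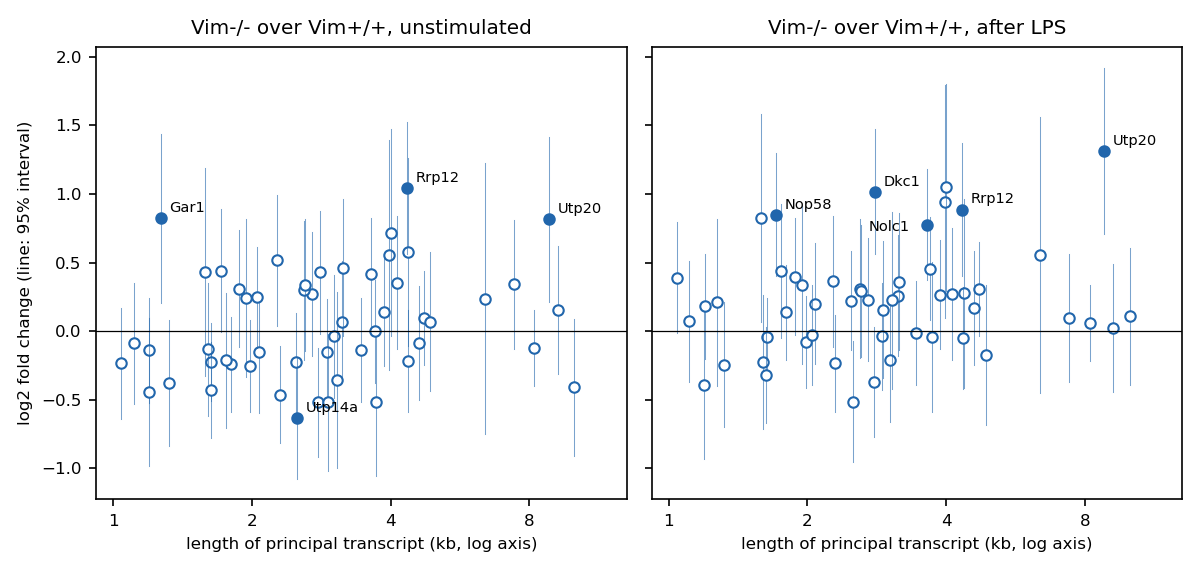
Log2 fold change of Vim-/- over Vim+/+ with its 95% interval (vertical axis) against the length of the principal transcript (kilobases, logarithmic axis) for the 53 members, unstimulated on the left and after LPS on the right; filled points passed the test. Utp20 and Rrp12 are among the longer members, whereas Gar1, at 1271 bases, and Nop58, at 1713 bases, are among the shorter.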

How the data were processed

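RNA was sequenced from 10 libraries of HoxB8-derived neutrophils. The authors trimmed reads with Cutadapt 4.4, aligned and quantified them with STAR 2.7.10b on mm10, estimated 4 covariates with RUVSeq, and fitted DESeq2 1.26.0 to all libraries. The gene annotation and the use of strand are not given in the sources used here. The 4 deposited tables hold comparisons only. Library depths are thus unknown, and the precision of a value is its deposited standard error. The signal baseMean is the authors' mean normalised count. The log2 fold change is deposited by the authors, with its standard error and Wald statistic, a score, and the p-value and adjusted p-value of the authors' DESeq2 Wald test. No member lacks an adjusted p, whereas 254 genes do between genotypes and 762 under LPS in Vim-/- cells. A test on counts was planned only for tables with counts per library, and the comparison columns were used in its place.

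Genotype signs were turned to Vim-/- over Vim+/+, and 95% intervals and the difference between LPS responses were computed in Python 3.11.15 (pandas 2.3.3, scipy 1.17.1, numpy 2.4.6). The test of the difference was run on simulated fold changes drawn independently with the deposited standard errors. That simulation cannot show whether the real spread is wider. The difference ignores covariance through shared covariates. Figures used matplotlib 3.10.9. Transcript lengths are those of the longest APPRIS principal transcript in GENCODE M21, or the longest transcript where none is tagged, for 12320 genes, and positions and promoters those of RefSeq on GRCm38.p6, the first listed promoter of a symbol being used. Promoters of Rrs1 and Rrp12 were not among those used.

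Groups come from the labels. Replicates are the biological replicates of the labels, and nothing ties them to separate lines or animals. The p-values therefore measure only the spread that the model left between these samples after its 4 covariates. Named in each comparison were the members with an adjusted p under 0.05, at baseline the 3 highest and 3 lowest, for the difference of responses the 5 with the smallest p, and a fixed set of 15, whose other members are given as a range for the difference of responses (Fbl, Ncl, Npm1, Nop56, Nop58, Dkc1, Polr1a, Polr1b, Pes1, Bop1, Wdr12, Nol6, Ddx21, Nolc1 and Gnl3). Up to 3 genes in each direction were named from each other list by their Wald statistic at baseline. The members and lists were chosen with earlier results of these data known. Alternatives were a 2-fold minimum, a baseMean of at least 100, no independent filtering, centring on the median gene or on genes of like length (10 bins), centring and scaling of the statistics, the name pattern alone, leaving out Nol4l, and the difference of responses taken from the genotype comparisons.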

Additional observations from a re-analysis of the deposited data

How the results depend on the processing

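No paired analysis was possible because the tables carry no values per library, although the labels' replicate numbers recur in the groups, and leaving out single replicates was not run for the same reason. The spread between replicates enters only through the deposited standard errors of a model with 4 covariates fitted to 10 libraries. At baseline, where 3 members were higher and 1 lower, 1 was higher and 0 lower with the 2-fold minimum, 2 were lower at a baseMean of at least 100, 1 was higher and 4 lower after centring on the median gene (by 0.06, with Gar1 at 0.76 and Utp20 at 0.75 past the threshold no longer and Noc2l at -0.58 past it), 0 were higher and 0 lower after the statistics were centred and scaled, and 3 were lower against genes of like length. Of all genes, 18.8% passed as deposited and 7.14%, 22%, 18.3%, 1.44% and 13.4% in this order. After LPS, 2 of the 5 were left with the 2-fold minimum, 0 after centring and scaling (5.32% and 2.22% of all genes), and 3 with the name pattern alone, which leaves out Dkc1 and Nolc1 by construction. The median of the members moved by less than their median standard error in every comparison and alternative. That is a loose bound, since this error of a single gene, 0.229 between genotypes, exceeds both genotype medians (0.0004 and 0.21). Against genes of like length the baseline median was -0.11. The causes were not tested. In the 5 comparisons, 11 of the 80 alternative counts of members changed by over 1.5 times, all of them between genotypes and most at baseline. Many of the counts that did not change were 0 throughout or held Rrs1 alone. Rrs1 kept its calls in both genotypes under all alternatives run, with adjusted p-values from 3.787e-09 to 1.231e-05 in Vim+/+ and from 2.866e-08 to 3.563e-07 in Vim-/- cells.

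Signs turned for values near 0. Against genes of like length, Ddx21 came to -0.20, Fbl to 0.0444 and Polr1a to -0.29 at baseline, Ncl to -0.0713, Polr1a to -0.11 and Wdr12 to -0.0257 after LPS, Ddx21 to -0.13, Fbl to 0.0809, Ncl to -0.24 and Polr1b to -0.0754 in the LPS response of Vim+/+ cells, and Polr1a to 0.17 in the difference between responses. Polr1a after LPS came to -0.0036 after centring on the median gene and to -0.0029 after centring and scaling.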

Other observations

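The RNA exosome and its partners trim and degrade ribosomal RNA precursors. Of 15 such genes, 1 was higher in unstimulated Vim-/- neutrophils (Exosc1, a subunit of the exosome cap, 0.86, SE 0.31, adjusted p = 0.03607 in the Wald test) and 2 were higher after LPS. These 2, the nuclease Dis3 (0.79) and the cap subunit Exosc2 (0.97), were named after their values were seen. The shares of the list, 6.67% at baseline and 13.3% after LPS, compare with 12.6% and 6.68% of all genes that were higher. The median over the list was 0.13 at baseline and 0.23 after LPS, and no gene passed under LPS in either genotype (in the Wald test none higher or lower in Vim+/+, and none higher and 1 lower in Vim-/- neutrophils at an unadjusted p under 0.05).

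MYC, a transcription factor that drives ribosome biogenesis in dividing cells, binds the E-box as a dimer with MAX, and the MXD proteins and MGA compete for MAX. Myc differed little between genotypes at baseline (0.03, SE 0.28), was at -0.50 under LPS in Vim+/+ neutrophils (SE 0.31, adjusted p = 0.5726) and rose in Vim-/- neutrophils (1.01, SE 0.25, adjusted p = 0.003989). It was higher in Vim-/- neutrophils after LPS (1.54, SE 0.29, adjusted p = 4.259e-06). The difference between its LPS responses was 1.52 (adjusted p = 0.09915 in the normal test across all genes), so it did not pass. Of the 9 genes of the network, 4 were higher at baseline in Vim-/- cells (44.4%, against 12.6% of all genes): Mga (1.23, adjusted p = 1.163e-05), Mxd1 (0.94, adjusted p = 2.11e-09), Mxi1 (0.46, adjusted p = 0.005037) and Mxd3 (1.02, adjusted p = 0.0423, named after its values were seen). After LPS, Mxd1 was higher as well as Myc (0.49, adjusted p = 0.007316 in the Wald test for Mxd1). Together they are 22.2% of the network, against 6.68% of all genes. Mxd1 rose under LPS in both genotypes, by 1.01 in Vim+/+ and 0.56 in Vim-/- cells. Any relation of the members to Myc was not tested.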
